A study of Mus musculus with 6 samples.

Results

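The p53 and GADD45 stress genes are 10 genes that cells use when DNA is damaged or growth signals become limiting. They were taken by symbol from the 23420 symbols of the count table, and all 10 were among the 13682 genes that had enough counts to be tested. They are *Trp53*, its regulator *Mdm2*, the p53 target genes *Ccng1*, *Sesn1*, *Sesn2*, *Trp53inp1* and *Zmat3*, and the GADD45 genes *Gadd45a*, *Gadd45b* and *Gadd45g*. Their RNA was measured by RNA-seq in B cells of the spleen of 3 Ahr+/+ and 3 Ahr-/- mice, 1 library per mouse, which the sample labels place on the C57Bl/6J background, and the question was how loss of the aryl hydrocarbon receptor (AhR) changes activated B cells. The study's methods name the Ahr-/- strain as B6.129-Ahr tm1Bra/J. These mice lack AhR in the whole body, so their B cells also developed without it. The mice were over 8 weeks old, and the study's methods describe them as matched for age and gender. B cells of both genotypes were activated in culture for 8 h through the B-cell receptor, with α-IgM at 10 μg/ml, together with IL-4 at 20 ng/ml. Both also received 250 nM FICZ, a high-affinity AhR ligand, for the last 4 h. No unstimulated cells and no cells without FICZ are part of the comparison, so each value describes activated, ligand-treated cells of 1 genotype against the other.

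p53, encoded by *Trp53*, is a transcription factor held at a low level by Mdm2, an E3 ligase that marks it for degradation and is itself a p53 target. p53 activity is set largely by protein stability and modification, which RNA counts do not show. The GADD45 proteins are small stress sensors that bind PCNA, the CDK1 and cyclin B1 complex and the kinase MEKK4, and so link stress signals to growth arrest and to the p38 and JNK pathways. *Gadd45a* is a p53 target gene, whereas *Gadd45b* is known as an NF-κB target gene and *Gadd45g* as a cytokine-responsive gene. AhR binds DNA with ARNT at dioxin response elements (DREs), whose core is GCGTG.

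All 3 GADD45 genes changed between the genotypes, and they did not change in the same direction. The 250 bases before each of their RefSeq start sites (GRCm38.p6) are therefore shown here, 5′ to 3′ in the direction of transcription. They were searched on both strands for the DRE core GCGTG and for the p53 half-site consensus. Capitals mark a p53 half-site in *Gadd45a* and the DRE core in *Gadd45b*, where it lies on the other strand and reads CACGC. The *Gadd45a* stretch is chr6:67037408-67037657 on the minus strand, *Gadd45b* is chr10:80929841-80930090 on the plus strand and *Gadd45g* is chr13:51846425-51846674 on the plus strand.
Gadd45a: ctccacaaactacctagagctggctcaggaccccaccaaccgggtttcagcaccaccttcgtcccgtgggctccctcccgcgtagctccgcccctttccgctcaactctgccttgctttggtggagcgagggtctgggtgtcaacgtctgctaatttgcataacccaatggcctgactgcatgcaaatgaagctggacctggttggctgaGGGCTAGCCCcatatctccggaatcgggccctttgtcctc
Gadd45b: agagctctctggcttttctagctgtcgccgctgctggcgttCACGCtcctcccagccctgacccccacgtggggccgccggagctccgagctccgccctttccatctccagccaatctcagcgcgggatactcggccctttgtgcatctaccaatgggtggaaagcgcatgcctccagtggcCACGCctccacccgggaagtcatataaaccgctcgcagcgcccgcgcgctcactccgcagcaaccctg
Gadd45g: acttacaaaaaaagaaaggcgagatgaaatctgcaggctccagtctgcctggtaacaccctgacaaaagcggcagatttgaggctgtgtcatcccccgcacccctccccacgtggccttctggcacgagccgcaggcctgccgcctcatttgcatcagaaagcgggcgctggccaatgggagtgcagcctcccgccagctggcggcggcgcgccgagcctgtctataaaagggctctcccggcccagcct
The half-site of *Gadd45a* starts 40 bases before the RefSeq start, and the DRE cores of *Gadd45b* start 209 and 68 bases before it. The GENCODE gene model of *Gadd45a* begins further upstream, so that the last 50 bases printed for it lie inside that model, as do the last 18 printed for *Gadd45b*. *Gadd45g* had neither sequence. Of the 10 genes, 8 had entries in the promoter table, with 9 windows of 300 bases (250 before and 50 after the start), since *Sesn1* has a pair of start sites. *Trp53inp1* and *Zmat3* had no entry. The DRE core was found in 4 of these 9 windows, those of *Ccng1*, *Gadd45b*, *Mdm2* and the downstream start of *Sesn1*, and in 32.4% of all 32851 windows of the table. A p53 half-site was found in 5 of the 9, those of *Trp53*, *Mdm2*, *Ccng1*, *Gadd45a* and the downstream start of *Sesn1*, and in 8.36% of all windows. These matches describe letters in a window and do not show binding.

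Libraries held between 22095096 and 53648787 counts, and the 2 extremes were both Ahr-/-. The targeted gene, *Ahr*, had 13175 ± 682 normalised counts when intact and 9174 ± 472 in the Ahr-/- mice (SD, 3 mice each). The AhR target gene *Cyp1a1* had 5246 ± 242 and 5.36 ± 2.20 normalised counts (SD, 3 mice each). Normalised counts are read counts divided by the relative, TMM-scaled size of each library. B cells were purified from spleen with a separation kit and not sorted into subsets. Of 9 B-cell markers, 6 were higher in Ahr-/- libraries and none was lower by edgeR, and their summed level was 3000 to 3240 CPM (TMM-scaled counts put on 1 common depth) in Ahr+/+ and 3563 to 3782 CPM in Ahr-/- libraries. Of 9 plasmacytoid dendritic cell markers, 7 were higher and 1 was lower, with sums of 281 to 304 and 249 to 266 CPM. The 7 higher markers had log2 fold changes from 0.44 for *Pacsin1* to 2.23 for *Siglech*. For these marker counts the background is 9.79% of all tested genes called higher and 8.13% called lower. Of 5 tested plasma cell markers, 1 was higher and 2 were lower, with sums of 370 to 526 and 348 to 391 CPM. Of 8 T-cell markers 1 was lower and 1 higher, of 8 conventional dendritic cell markers 1 was lower and 4 higher, of 8 macrophage and monocyte markers 1 was lower and 1 higher, and of 6 NK-cell markers 3 were higher. Their sums were 158 to 168 and 159 to 184 CPM, 21.3 to 24.4 and 23.0 to 27.9 CPM, 32.8 to 43.3 and 19.4 to 34.0 CPM, and 8.89 to 10.9 and 11.3 to 17.8 CPM in Ahr+/+ and Ahr-/- libraries, in that order. Single genes carried several of these sums, as a look at each sum without its most different gene, added after the data were seen, showed. Without *Tcf4*, a transcription factor whose level fell from 196 to 122 CPM, the plasmacytoid dendritic cell sum was higher in Ahr-/- libraries, 123 to 151 CPM against 93.2 to 108. Without *Jchain*, which fell from 251 to 133 CPM, the plasma cell sum was higher too, 237 to 250 CPM against 199.7 to 214. Without *Adgre1*, which fell from 16.9 to 1.41 CPM, the macrophage and monocyte sum was 15.8 to 26.05 CPM in Ahr+/+ and 18.5 to 32.4 in Ahr-/- libraries. The conventional dendritic cell sum without *Itgax* was 18.6 to 19.9 CPM in Ahr+/+ and 15.8 to 18.5 in Ahr-/- libraries. The most abundant gene left in it, *Zbtb46*, was the marker called lower, with means of 552 and 418 normalised counts. *Cd209a*, *Clec9a* and *Clec10a*, which had few counts, were called higher, with log2 fold changes of 2.52, 1.86 and 1.83. *Xcr1*, *Flt3* and *Batf3* were not called. The T-cell sum without *Lck*, which made up most of it, was 6.14 to 8.87 and 7.23 to 8.94 CPM. The NK-cell sums without *Gzmb* overlapped, at 6.67 to 8.77 and 7.71 to 12.5 CPM, while the B-cell sums without *Cd79b* remained apart, at 2463 to 2647 and 2855 to 3039 CPM. The summed markers of neutrophils and erythroid cells were at most 6.14 CPM in every library. In such bulk RNA, a change in the share of a cell type and a change in RNA per cell cannot be told apart, and the part of these marker differences in the results that follow was not tested.

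Of the 10 genes, 4 had a different level in Ahr-/- B cells and 6 did not pass the test. *Gadd45a* fell to 19.7% of its Ahr+/+ level, *Gadd45b* to 63.1% and *Trp53inp1* to 77.5%, and *Gadd45g* rose to 158%. *Trp53*, *Mdm2*, *Ccng1*, *Sesn1*, *Sesn2* and *Zmat3* had adjusted p-values between 0.247 and 0.81 in edgeR's quasi-likelihood test. The 4 called genes, 3 lower and 1 higher, are 40.0% of the set. Among all tested genes 17.9% were called, 8.13% lower and 9.79% higher in Ahr-/- B cells, which is the background for these counts. The genotypes did not overlap for the same 4 genes, which held for 33.5% of all tested genes. The median log2 fold change was −0.04 over the 10 genes and 0.00 over all tested genes, and the median absolute log2 fold change was 0.13 against 0.11. All fold changes here are Ahr-/- relative to Ahr+/+.

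**Figure D1:**
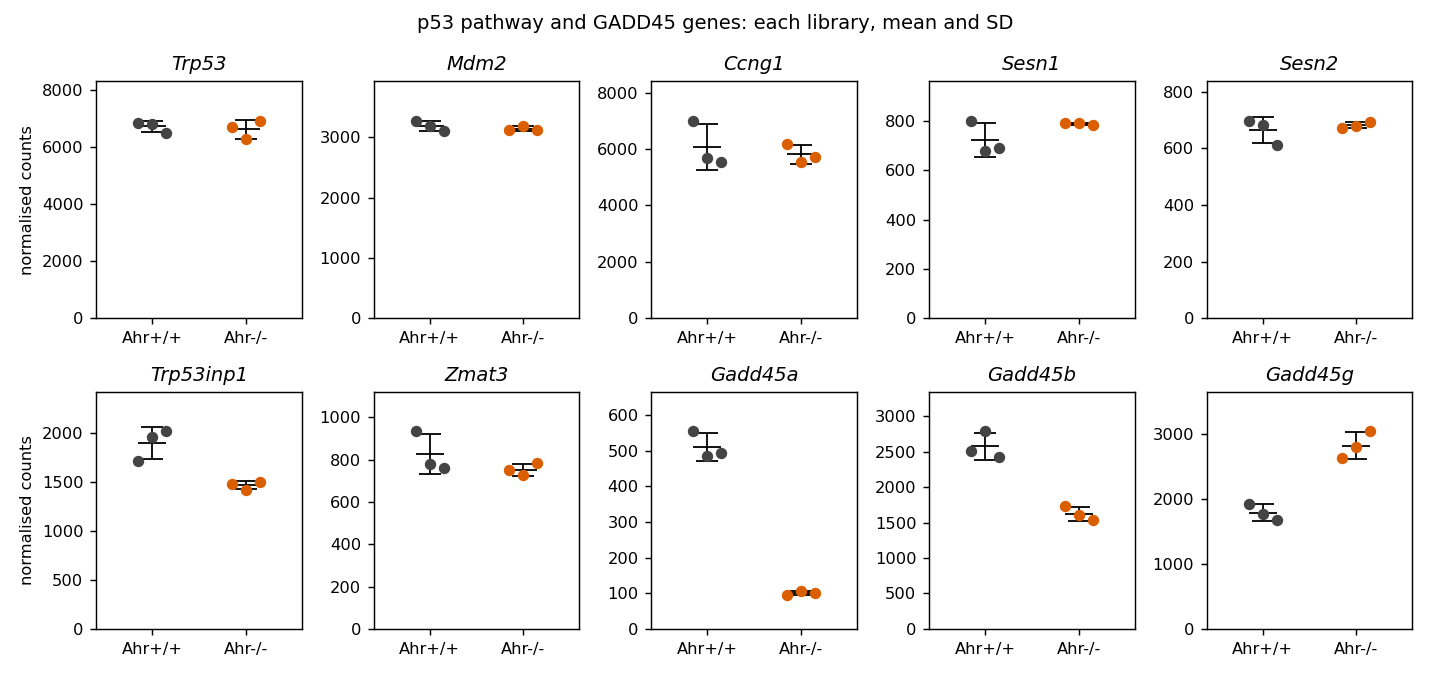
Normalised counts of the 10 genes (y axes, starting at 0) in each of the 3 Ahr+/+ (grey) and 3 Ahr-/- (orange) libraries, with the mean and SD as bars. The genotypes separate for *Trp53inp1*, *Gadd45a*, *Gadd45b* and *Gadd45g* and overlap for the other 6 genes.

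*Trp53* encodes p53 itself and lies on chr11:69580359-69591873 (GRCm38, plus strand). It had 6834, 6812 and 6481 normalised counts in the 3 Ahr+/+ mice, against 6680, 6259 and 6915 in the Ahr-/- mice. The Ahr-/- libraries thus held both the lowest and the highest value. The log2 fold change was −0.02, with a 95% interval of −0.12 to 0.08 (adjusted p = 0.81 from edgeR). A processed copy of the gene, *Trp53-ps*, is 94.96% identical over 1170 bases and has no row in the count table, and how reads matching both were assigned is not stated. *Mdm2*, on chr10:117688875-117710758 (minus strand), had 3279, 3183 and 3109 normalised counts in the 3 Ahr+/+ mice, against 3124, 3188 and 3128 in the Ahr-/- mice. The Ahr+/+ libraries had an SD of 85.4 around 3190, and the Ahr-/- values lay within their range. Its log2 fold change was −0.02 with an interval of −0.10 to 0.06 (adjusted p = 0.78 from edgeR).

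The ratio of *Mdm2* to *Trp53* within a library, which does not depend on library scaling, was −1.07 ± 0.0218 on the log2 scale in Ahr+/+ and −1.07 ± 0.0884 in Ahr-/- libraries (SD, n = 3; two-sided exact permutation test p = 0.9). *Mdm2*, which p53 induces, relative to *Trp53* thus differed between the genotypes by less than the spread between replicates.

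Of the p53 target genes among the 10, *Trp53inp1* was the single one that passed the test besides *Gadd45a*. It encodes a stress-induced nuclear protein that takes part in p53-dependent cell death and in autophagy, and lies on chr4:11156431-11174379 (plus strand). It had 1712, 1954 and 2016 normalised counts in the 3 Ahr+/+ mice, against 1483, 1422 and 1497 in the Ahr-/- mice. Every Ahr-/- value was below every Ahr+/+ value, and the mean fell from 1894 ± 160 to 1467 ± 40.1 (SD, 3 mice each). This was 77.5% of the Ahr+/+ level, a log2 fold change of −0.37 ± 0.058 (SE; edgeR adjusted p = 6.9e-04).

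*Ccng1*, encoding cyclin G1, which recruits a phosphatase to Mdm2, lies on chr11:40748552-40755311 (minus strand). It had 7006, 5682 and 5530 normalised counts in the 3 Ahr+/+ mice, against 6177, 5537 and 5699 in the Ahr-/- mice. Replicate 1 was the highest library of each genotype, and the difference, a log2 fold change of −0.07 (interval −0.24 to 0.10; edgeR adjusted p = 0.61), was within the spread of the Ahr+/+ libraries. Without Ahr+/+ replicate 1 the log2 fold change was 0.048. *Zmat3*, encoding an RNA-binding zinc finger protein induced by p53, lies on chr3:32334792-32366014 (minus strand). It had 933, 778 and 761 normalised counts in Ahr+/+ and 748, 726 and 781 in Ahr-/- libraries. Ahr+/+ replicate 1 was again the highest of the 6, and the genotypes overlapped, with a log2 fold change of −0.14 (interval −0.30 to 0.03; edgeR adjusted p = 0.27). Without Ahr+/+ replicate 1 it was −0.035.

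The sestrins restrain mTORC1 when amino acids are scarce or stress is sensed. *Sesn1*, on chr10:41809935-41908424 (plus strand), had 802, 677 and 691 normalised counts in the 3 Ahr+/+ mice, against 793, 790 and 786 in the Ahr-/- mice. The 3 Ahr-/- values were almost equal and lay within the Ahr+/+ range, because Ahr+/+ replicate 1 was higher than the other two. The log2 fold change was 0.12 (interval −0.02 to 0.27; edgeR adjusted p = 0.25). Without Ahr+/+ replicate 1 it was 0.21, with an adjusted p of 0.038 from edgeR, and this was the one alternative under which *Sesn1* was called. *Sesn2*, on chr4:132492032-132510501 (minus strand), had 698, 682 and 613 in Ahr+/+ and 673, 680 and 695 in Ahr-/- libraries, a log2 fold change of 0.04 (interval −0.10 to 0.17; edgeR adjusted p = 0.75). The log2 ratio of *Sesn2* to *Sesn1* differed by −0.09 between the genotypes (two-sided exact permutation test p = 0.2), and by −0.025 without Ahr+/+ replicate 2 and −0.046 between medians.

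**Figure D2:**
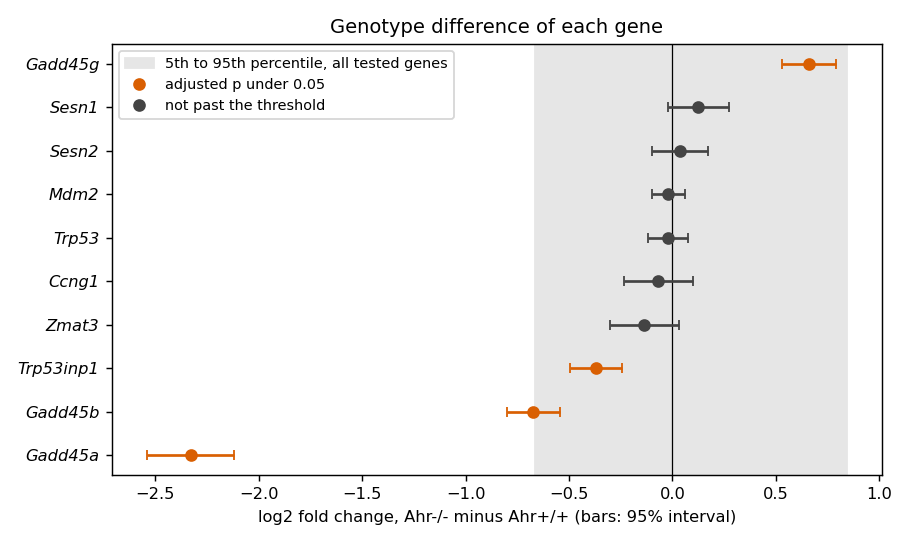
Log2 fold change of each gene (x axis, Ahr-/- minus Ahr+/+) with its 95% interval from edgeR, orange where the adjusted p is under 0.05. The grey band spans the 5th to 95th percentile of all tested genes (−0.67 to 0.84). *Gadd45a*, at −2.33, lies far to its left, *Gadd45b*, at −0.67, lies at its edge, and the 6 genes not called have intervals that include 0.

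*Gadd45a* had the largest change of the 10 genes. It lies on chr6:67035096-67037457 (minus strand). The Ahr+/+ libraries held 571, 481 and 439 counts, and the Ahr-/- libraries held 55, 150 and 110. Scaled to library size these were 555, 484 and 493 normalised counts in Ahr+/+ and 94, 107 and 100 in Ahr-/- libraries, so that the genotypes were far apart and the replicates close together. The mean fell from 511 ± 38.4 to 100.4 ± 6.12 (SD, 3 mice each), which is 19.7% of the Ahr+/+ level. The log2 fold change was −2.33 ± 0.097 (SE; edgeR adjusted p = 4.9e-09). Only 41 of the 13682 tested genes had a smaller p-value, and 76 genes called lower had a log2 fold change as low or lower, *Gadd45a* included. *Gadd45a* shares 337 of its exon bases, 19.1%, with *E230016M11Rik* on the opposite strand. That gene had between 4 and 10 counts in every library, well below *Gadd45a*, although the use of strand in counting is not given in the sources used here.

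*Gadd45b*, on chr10:80930073-80932204 (plus strand), had 2510, 2787 and 2424 normalised counts in the 3 Ahr+/+ mice, against 1733, 1605 and 1530 in the Ahr-/- mice. The lowest Ahr+/+ library was well above the highest Ahr-/- library. The mean fell from 2573 ± 190 to 1623 ± 103 (SD, 3 mice each), or 63.1% of the Ahr+/+ level, with a log2 fold change of −0.67 ± 0.058 (SE; edgeR adjusted p = 4.8e-06).

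*Gadd45g*, on chr13:51846678-51848468 (plus strand), moved the other way. It had 1921, 1764 and 1670 normalised counts in the 3 Ahr+/+ mice, against 2619, 2789 and 3034 in the Ahr-/- mice, again without overlap. The mean rose from 1785 ± 127 to 2814 ± 209 (SD, 3 mice each), or 158% of the Ahr+/+ level, with a log2 fold change of 0.66 ± 0.060 (SE; edgeR adjusted p = 7.2e-06). For each of the 4 called genes the two-sided exact permutation test gave p = 0.1, which is the lowest value that groups of 3 can reach. Over 14 other settings of the analysis each kept its call and direction, with log2 fold changes of −2.38 to −2.27 for *Gadd45a*, −0.71 to −0.61 for *Gadd45b*, 0.60 to 0.72 for *Gadd45g* and −0.44 to −0.32 for *Trp53inp1*. The changed prior count among these settings does not enter the p-values and could not alter a call. None of the 10 genes lies on chromosome 12, which carries *Ahr*, so none is near the targeted locus.

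To compare levels between genes, counts were scaled to CPM per kilobase of exon. In Ahr+/+ B cells 4 genes stood together at the top, *Ccng1* at 44.99 ± 6.01, *Trp53* at 43.2 ± 1.27, *Gadd45b* at 42.1 ± 3.11 and *Gadd45g* at 39.6 ± 2.82 CPM per kilobase (SD, n = 3 mice), and neighbours in this order differed by less than their spread. *Mdm2* followed at 16.3 ± 0.437. *Trp53inp1* at 7.61 ± 0.644 and *Gadd45a* at 7.53 ± 0.567 differed by less than their spread, as did *Sesn2* at 4.98 ± 0.339 and *Sesn1* at 4.73 ± 0.449. *Zmat3* was lowest at 1.88 ± 0.216. In Ahr-/- B cells *Gadd45g* stood alone at the top at 62.4 ± 4.63 CPM per kilobase. *Ccng1* at 43.0 ± 2.47 and *Trp53* at 42.6 ± 2.14 came next and *Gadd45b* fell below them to 26.6 ± 1.68. *Gadd45a*, at 1.48 ± 0.090, was now the lowest of the 10 genes, below *Zmat3* at 1.71 ± 0.064. This change of rank depends on exon length. In normalised counts *Gadd45a* was already the lowest of the 10 in Ahr+/+ libraries, at 511, with *Sesn2* next at 665.

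Within the GADD45 family *Gadd45g* made up more, and *Gadd45a* and *Gadd45b* less, of the summed level in Ahr-/- B cells. The size and direction of the difference in the sum itself depended on the scale. The summed level was 91.9, 91.9 and 84.0 CPM per kilobase in Ahr+/+ libraries and 87.9, 89.7 and 93.8 in Ahr-/- libraries, means of 89.3 ± 4.56 and 90.5 ± 3.06 (SD, 3 mice each; two-sided exact permutation test p = 0.8). *Gadd45g* made up 46.4%, 42.6% and 44.1% of the sum in Ahr+/+ and 66.1%, 69.0% and 71.7% in Ahr-/- libraries. The share of *Gadd45b* was 47.2% ± 2.47 in Ahr+/+ and 29.4% ± 2.80 in Ahr-/- libraries, and that of *Gadd45a* was 8.44% ± 0.597 and 1.64% ± 0.0997 (SD, 3 mice each). Each share is thus separate between the genotypes. If exon length is left out, the summed normalised counts were 4869 ± 246 and 4537 ± 113 (two-sided exact permutation test p = 0.2), and the share of *Gadd45g* went from 36.7% to 62.0%. The sums thus differed by 1.21 CPM per kilobase with length and by −332 normalised counts without it. In Ahr+/+ B cells *Gadd45b* and *Gadd45g* had shares that overlapped with length, while *Gadd45b* had the larger share without it.

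**Figure D3:**
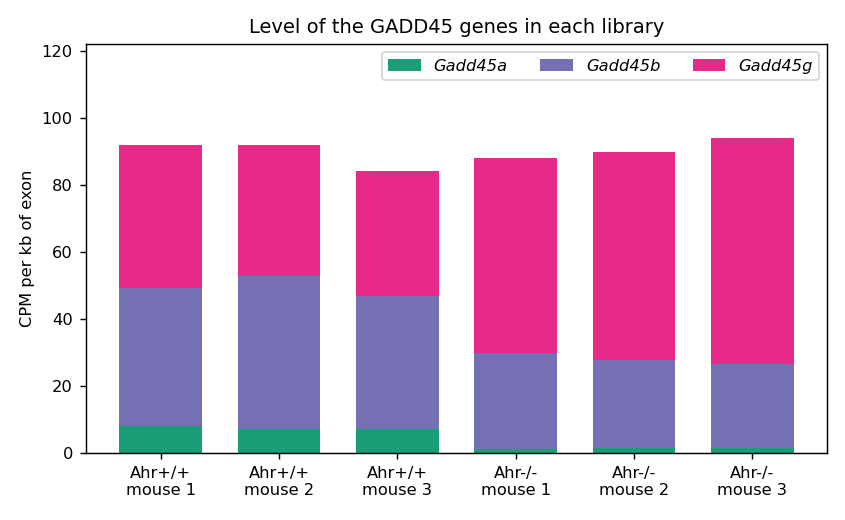
Stacked levels of *Gadd45a* (green), *Gadd45b* (violet) and *Gadd45g* (pink) in each library, in CPM per kilobase of exon (y axis from 0). The total heights lie between 84.0 and 93.8, while the *Gadd45g* part is larger and the *Gadd45a* and *Gadd45b* parts smaller in every Ahr-/- library.

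The ratios inside each library restate the same shift free of library scaling. They are formed from the same counts as the fold changes and are not separate evidence. *Gadd45g* to *Gadd45b* counts stood at −0.53 ± 0.138 on the log2 scale in Ahr+/+ and at 0.79 ± 0.196 in Ahr-/- libraries (SD, 3 mice each), so *Gadd45b* had more counts in all 3 Ahr+/+ libraries and *Gadd45g* in all 3 Ahr-/- libraries. *Gadd45b* to *Gadd45a* rose from 2.33 ± 0.177 to 4.01 ± 0.160, since *Gadd45a* fell further than *Gadd45b*. Neither ratio overlapped between the genotypes (two-sided exact permutation test p = 0.1 each, 0.25 after adjustment over the 5 ratios compared). With 3 mice per genotype this test cannot pass a threshold of 0.05. *Ccng1* to *Trp53* differed by −0.04 (two-sided exact permutation test p = 0.8), a difference without a stable direction, since it was 0.056 without Ahr+/+ replicate 1, 0.0068 without Ahr-/- replicate 3 and 0.052 between medians. The *Mdm2* to *Trp53* difference likewise ran from −0.048 to 0.037 with each library left out in turn.

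**Figure D4:**
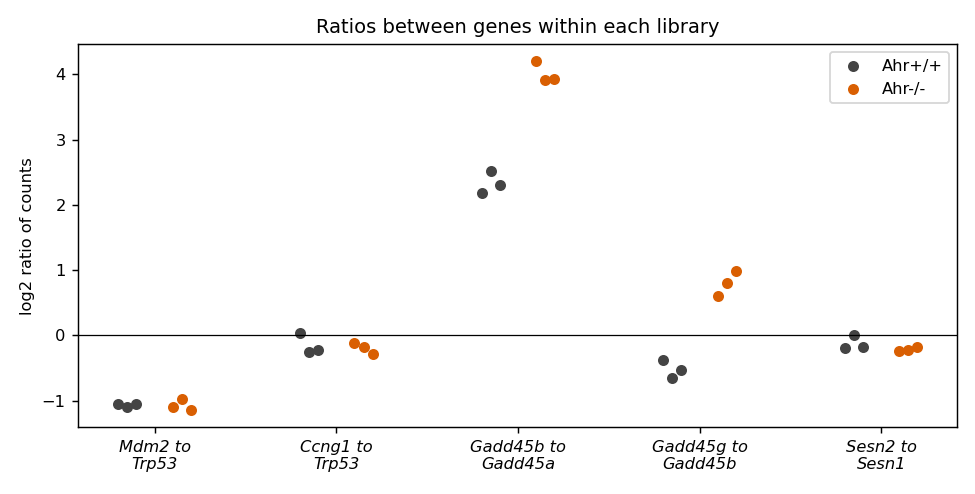
Log2 ratio of the counts of 2 genes within each library (y axis) for the 5 ratios compared, Ahr+/+ in grey and Ahr-/- in orange. The genotypes separate for *Gadd45b* to *Gadd45a* and for *Gadd45g* to *Gadd45b*, which crosses 0, and overlap for the other 3 ratios.

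Of 28 further p53 target genes, 27 were tested, 2 were lower and none was higher in Ahr-/- B cells, which is 7.41% against 17.9% of all tested genes, and their median log2 fold change was 0.01. *Fas*, the death receptor, fell from 380 ± 9.38 to 159 ± 6.48 normalised counts (SD, 3 mice each), a log2 fold change of −1.25 ± 0.086 (SE; edgeR adjusted p = 6.0e-07). *Btg2*, an antiproliferative gene, fell by 0.25 on the log2 scale, from 3864 to 3254 normalised counts (adjusted p = 9.6e-04 from edgeR). *Cdkn1a*, encoding the cell cycle inhibitor p21, had 1014 ± 206 and 852 ± 36.2 normalised counts (adjusted p = 0.14 from edgeR), and *Bax*, a mediator of apoptosis, had 5515 ± 231 and 6012 ± 145 (adjusted p = 0.056 from edgeR). Without Ahr+/+ replicate 3, 4 of these targets were called.

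Of 22 regulators and relatives of p53, 21 were tested and 4 were called, all higher in Ahr-/- B cells, or 19.0% with a median log2 fold change of 0.01. That share is near the 17.9% of all tested genes, of which 9.79% were higher. *Hipk2*, a kinase that phosphorylates p53, rose from 2982 ± 324 to 4190 ± 251 normalised counts (log2 fold change 0.50; edgeR adjusted p = 2.5e-04). The checkpoint kinase *Chek2* rose by 0.28, the ubiquitin ligase *Rchy1* by 0.26 and the deubiquitinase *Usp7*, which acts on p53 and Mdm2, by 0.21 on the log2 scale. *Mdm4*, the relative of *Mdm2* that blocks p53 activity, had a log2 fold change of 0.01 (adjusted p = 0.89 from edgeR). *Trp63* had no counts in any library. Without Ahr-/- replicate 3, 7 genes of the list were called.

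Among 13 partners of GADD45 proteins and stress kinases, 2 were lower and 1 was higher, or 23.1% against 17.9% of all tested genes, so that the count is near the background. *Mapk11*, encoding p38β, fell from 884.5 ± 58.7 to 551 ± 85.0 normalised counts (log2 fold change −0.68; edgeR adjusted p = 2.4e-04). *Map2k3*, encoding an activator of p38, fell by 0.14 on the log2 scale (adjusted p = 0.036 from edgeR), while *Map2k6*, encoding another, rose from 15.7 ± 4.78 to 38.0 ± 8.25 normalised counts (log2 fold change 1.29; edgeR adjusted p = 0.0083). *Mapk14*, encoding p38α, *Map3k4*, encoding MEKK4, and *Pcna* had log2 fold changes of 0.01, 0.02 and −0.04 and were not called. Without Ahr-/- replicate 2, 1 gene of the list was called.

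Among 9 further genes of the sestrin and GATOR pathway, through which sestrins act on mTORC1, 2 were lower and 1 was higher, or 33.3% against 17.9% of all tested genes, with a median log2 fold change of −0.03. The third sestrin, *Sesn3*, fell by 0.23 on the log2 scale, from 796 ± 78.4 to 675 ± 34.1 normalised counts (adjusted p = 0.046 from edgeR). The GATOR2 subunits *Seh1l* and *Wdr59* had log2 fold changes of −0.14 and 0.14 (adjusted p = 0.014 and 0.026 from edgeR). These calls moved with single libraries, with 1 of the 9 genes called without Ahr+/+ replicate 1 or replicate 2 and none called without Ahr+/+ replicate 3 or Ahr-/- replicate 2 by edgeR. Of 10 paralogs of the 10 genes, 8 were tested and 3 were lower, or 37.5%, against 8.13% of all tested genes called lower and 17.9% called in either direction. They were *Zmat1*, *Sesn3* and *Zmat2*, with log2 fold changes of −0.36, −0.23 and −0.17. Here too 1 was called without Ahr+/+ replicate 2 or Ahr-/- replicate 1, and none without Ahr+/+ replicate 3 or Ahr-/- replicate 2.

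The integrated stress response, in which eIF2α kinases act through ATF4, shares genes with the p53 and GADD45 responses. Of its 12 genes, 3 were lower and 2 were higher, or 41.7% against 17.9% of all tested genes (8.13% lower and 9.79% higher), with a median log2 fold change of 0.01. *Ddit4*, an inhibitor of mTORC1 also known as REDD1, fell from 2421 ± 136 to 692 ± 56.4 normalised counts (SD, 3 mice each), a log2 fold change of −1.80 ± 0.062 (SE; edgeR adjusted p = 1.1e-09). *Ppp1r15a*, also called GADD34, which directs dephosphorylation of eIF2α, fell from 3044 ± 86.1 to 2057 ± 39.2 (log2 fold change −0.56; edgeR adjusted p = 5.9e-07), and the transcription factor *Atf3* fell by 0.40 on the log2 scale. *Eif2ak3*, encoding the kinase PERK, rose from 1846 ± 11.6 to 2795 ± 266 (log2 fold change 0.60; edgeR adjusted p = 1.1e-05), and *Chac1*, an ATF4 target, rose by 0.32. *Atf4* itself had a log2 fold change of −0.04 (adjusted p = 0.53 from edgeR). *Ddit3*, encoding CHOP and also called GADD153, had 1568 ± 20.4 and 1811 ± 229 normalised counts (adjusted p = 0.055 from edgeR). Each list was small and chosen with earlier results of these data known, so its share describes these genes and no more.

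**Figure D5:**
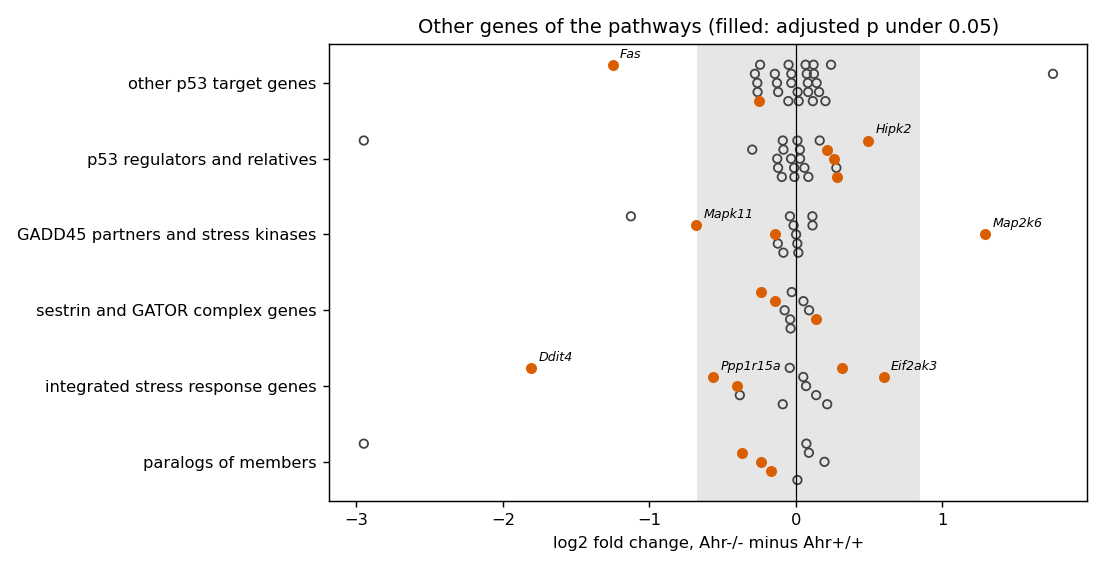
Log2 fold change (x axis, Ahr-/- minus Ahr+/+) of every tested gene of the 6 pathway lists, filled orange where the adjusted p from edgeR is under 0.05. The grey band spans the 5th to 95th percentile of all tested genes. *Fas*, *Mapk11*, *Ddit4* and *Map2k6* are the called genes outside it. Open points far from 0 are genes with few counts.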

How the data were processed

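RNA from activated B cells of 3 Ahr+/+ and 3 Ahr-/- mice was sequenced as stranded mRNA libraries. The values used here are raw counts, deposited as the reads assigned to each gene symbol. Their normalised counts and the table of their own comparison (fold changes and p-values) were not used. The submitters' processing notes name TopHat2, HTSeq, DESeq and mm10, and the use of strand in counting is not given in the sources used here. Genes whose counts summed to 10 or more were compared with edgeR 4.0.16 (R 4.3.3, TMM, quasi-likelihood test). P-values had a Benjamini-Hochberg adjustment over all tested genes, with a threshold of 0.05. The fit was tried beforehand on data simulated with 200 changed genes of 13682 and the same dispersion for every gene. It recovered 192 of them and made 15 false calls. Single genes were compared by exact permutation tests of log2 normalised counts, with 0.5 added before the log. The same test was applied to log2 ratios of raw counts and to the GADD45 sums without a log. At least 3 counts, 0.0559 to 0.136 CPM by library, were taken as the detection limit, which covers counting error only. Positions, exon lengths (union of exons) and overlaps come from GENCODE M21 (GRCm38), and promoter sequences from RefSeq. In the count table, 2 symbols repeat. Each library is from a separate mouse. The 10 genes are all named, and of each pathway list the genes called are named, up to 6, beside a few others singled out after their values were seen. The genes, lists and tests were chosen with earlier results of these data known. Alternatives were other scalings, filters, prior counts and thresholds, a robust fit, DESeq2 1.42.0, a replicate block and leaving out each library.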

Additional observations from a re-analysis of the deposited data

How the results depend on the processing

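The 4 called genes, *Trp53inp1*, *Gadd45a*, *Gadd45b* and *Gadd45g*, kept direction and call under all 14 alternatives, the highest adjusted p being 0.0058, for *Trp53inp1*. A prior count of 2, counted among the 14, left the p-values as they were, so no call could change under it. Between 4 and 5 of the 10 genes were called. With scaling by library size alone the log2 fold changes of *Trp53* and *Mdm2* turned to 0.0047 and 0.0056, and 5 further p53 targets were called, as were 4 with the robust fit. That scaling shifted the median of all genes by 0.02, and 36.2% of its calls were lower against 45.4% with TMM. At an adjusted p under 0.01, 1473 genes were called in all, and none of the sestrin and GATOR list (0) or the paralogs (0), against 3 and 3 at 0.05 by edgeR. Leaving out each library gave 1664 to 2601 genes called in all, 2 to 4 other p53 targets, 3 to 7 p53 regulators, 1 to 4 GADD45 partners, 0 to 3 sestrin and GATOR genes and 0 to 3 paralogs. It gave log2 fold changes of −0.057 to 0.020 for *Trp53*, −0.039 to 0.00048 for *Mdm2*, −0.13 to 0.048 for *Ccng1*, 0.078 to 0.21 for *Sesn1*, −0.016 to 0.075 for *Sesn2* and −0.19 to −0.035 for *Zmat3*. The cause was not tested. Without exon length the share of *Gadd45a* in the family differed by −8.28 percentage points in place of −6.80, an alternative added after seeing the data. Same-numbered libraries had correlations of −0.14, 0.24 and −0.18 in their deviations from the genotype means. With 3 libraries per genotype these deviations are tied to each other, so the correlations cannot decide whether the numbers pair the mice. With a replicate block 2303 genes were called. *Gadd45a* had 55 to 150 counts in Ahr-/- libraries, and their part in the precision of its fold change was not tested.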
